A study of Homo sapiens with 8 samples.

Results

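The genes of 10 integrin subunits were followed in A549 cells, a human lung adenocarcinoma line of epithelial origin, after transfection with siRNA to APEX1 (siAPEX1) or with a scramble control siRNA (siCTRL). The genes were chosen by name, 5 alpha subunits (ITGA2, ITGA3, ITGA5, ITGA6 and ITGAV) and 5 beta subunits (ITGB1, ITGB3, ITGB4, ITGB5 and ITGB8), as the rows of the count table whose Ensembl identifiers carry these symbols in GENCODE 44. All 10 were found among 58302 genes, and 8 of them had enough counts to be tested. Each group held 4 libraries, made from total RNA taken 72 h after transfection. The siRNA was the only difference between the groups that the labels name. The study describes its replicates as biological, while the labels do not say whether they were separate cultures, and p-values measure the spread between these libraries, all of 1 cell line. The kit used adds a tail to the 3′ end of every RNA, small RNA included, and was modified by the authors so that longer transcripts were read too.

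Integrins are receptors in the plasma membrane, each built from 1 alpha and 1 beta subunit, that hold a cell to the extracellular matrix and pass signals in both directions. ITGB1 pairs with many alpha subunits, whereas ITGB4 pairs with ITGA6 alone, so the choice of partner decides the ligand. In epithelium, ITGA3 with ITGB1 and ITGA6 with ITGB4 bind laminins of the basement membrane, ITGA2 with ITGB1 binds collagen, and ITGA5 with ITGB1 and the ITGAV pairs bind fibronectin, vitronectin or latent TGF-beta through the RGD motif. APEX1 encodes APE1, an endonuclease of base excision repair that also acts as a redox cofactor of transcription factors such as AP-1.

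Between 1639796 and 1949886 reads were counted in the siCTRL libraries and between 1348386 and 1619500 in the siAPEX1 libraries, with no overlap (two-sided exact permutation test, p = 0.0286, the smallest value that 70 labelings allow). Depth and condition therefore run together. Levels are given in CPM, counts relative to the library size after correction by TMM factors (trimmed mean of M values), which ranged from 1.1 to 1.14 in siCTRL and from 0.873 to 0.919 in siAPEX1. APEX1 itself (chromosome 14 from 20455191 to 20457772) had 51, 61, 64 and 47 counts in the siCTRL libraries and 21150, 19470, 27916 and 20767 in the libraries labelled siAPEX1, which goes against the label. Its log2 fold change was 9.29 (SE 0.127, edgeR adjusted p = 8.97e-42). Whether reads of the transfected siRNA, directed at the same gene, are among these counts was not tested, and every direction given here is that of the libraries as labelled. Each would turn if the labels of the groups were exchanged. KRT8, KRT18, KRT7, KRT19 and CDH1, markers of epithelium, were detected in all 8 libraries, while EPCAM had 0 counts in siAPEX1 replicate 2. PECAM1, CDH5, CD3E, GP9 and LUM, markers of endothelium, T cells, platelets and fibroblasts, were at 0 in all of them. The other markers of leukocytes, endothelium, platelets and fibroblasts were not. CD14 had up to 9 counts in a library and the rest at most 5.

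Of the 8 tested integrin genes, ITGA3, ITGAV, ITGB4 and ITGB5 were lower in the libraries labelled siAPEX1, ITGA6 was higher, and ITGA2, ITGA5 and ITGB1 did not pass the test. The decrease was largest for ITGB4, at 2.80-fold, followed by ITGA3 at 1.81-fold, ITGB5 at 1.51-fold and ITGAV at 1.34-fold, and ITGA6 was 1.57-fold higher. The 4 genes called lower among 8 tested compare with 15.8% of the 5368 genes tested in all, and the 1 called higher with 15.9%. Either direction was called for 31.7% of all genes, at an adjusted p of at most 0.05. When a log2 fold change of at least 1 was required too, ITGB4 alone was called, 1 of 8 against 9.28% of all genes, a share near the background. The median log2 fold change was -0.42 over the 5 alpha subunits, of which 2 were lower and 1 higher, and -0.59 over the 3 tested beta subunits, of which 2 were lower. Over all genes tested it was 0.00. With ITGB3 and ITGB8 included, in the fits on all genes with at least 1 count, the beta median turned sign, to 0.14 with edgeR and 0.22 with DESeq2. The ranges of the classes crossed (-0.86 to 0.65 for alpha, -1.48 to 0.23 for beta), so that neither class moved as 1 group. In bulk RNA, fewer cells that express a gene and less RNA per cell cannot be told apart.

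**Figure D1:**
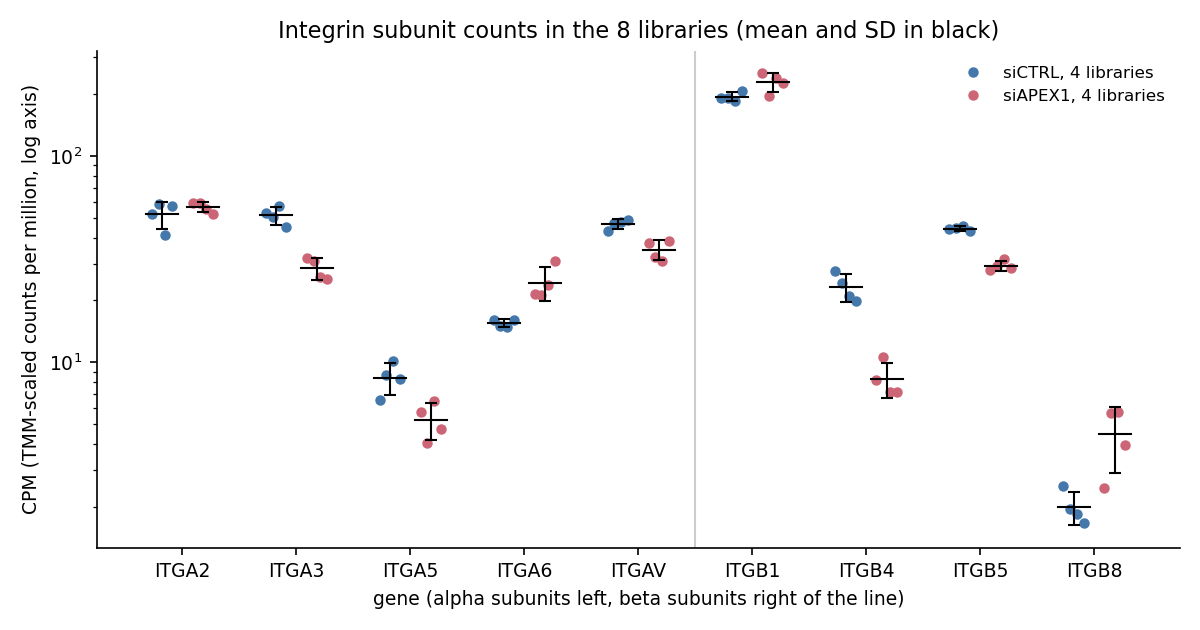
Level of 9 integrin subunit genes in each library, in CPM on a log axis; points are libraries, black bars the mean and SD of 4 libraries, and ITGB3, with at most 1 count per library, is left out. ITGB4, ITGA3, ITGB5, ITGAV and ITGA5 show siAPEX1 points wholly under the siCTRL points, and ITGA6 shows them wholly above. ITGA5 did not pass the test, and how many of all tested genes separate in this way was not counted.

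**Figure D2:**
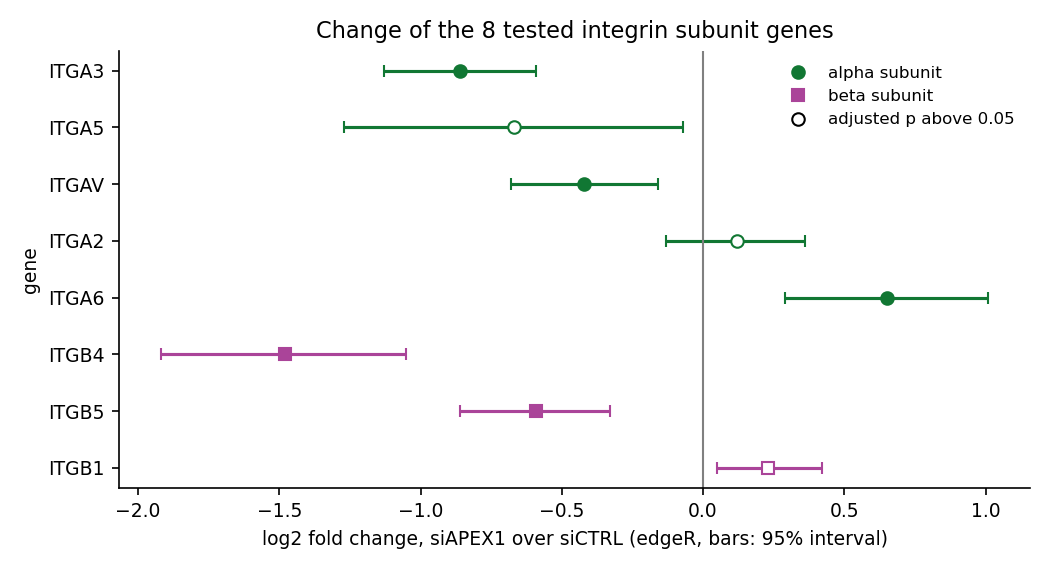
Log2 fold change of the 8 tested integrin genes, siAPEX1 over siCTRL, from edgeR, with 95% intervals; circles are alpha and squares beta subunits, and open symbols have an adjusted p above 0.05. ITGB4 lies farthest from 0, at -1.48, and ITGA6 is the one filled symbol on the right.

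The laminin receptors held both the largest decrease and the one increase. ITGB4 (ENSG00000132470, chromosome 17 from 75721328 to 75757818, plus strand) encodes the beta subunit that links laminin to keratin filaments in hemidesmosomes. It had 55, 50, 45 and 36 counts in the siCTRL libraries and 10, 13, 10 and 9 in the siAPEX1 libraries. In CPM this was 23.2 ± 3.52 against 8.29 ± 1.59 (SD, n = 4 each). Every siAPEX1 library lay under every siCTRL library, and the log2 fold change was -1.48 (SE 0.222, adjusted p = 9.12e-07). With any 1 library left out it stayed between -1.59 and -1.39. The gene has 40 exons in its canonical transcript, the most of the 10 genes.

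ITGA6 (ENSG00000091409, chromosome 2 from 172427354 to 172506459, plus strand), the only alpha partner of ITGB4 and also a partner of ITGB1, went the other way. Its raw counts were alike in the groups, 32, 31, 32 and 29 in siCTRL and 26, 26, 33 and 39 in siAPEX1, with 124 in sum in each group. Since the siAPEX1 libraries were smaller, its CPM were 16.1, 15.01, 14.8 and 16.05 in siCTRL and 21.4, 21.1, 23.8 and 30.98 in siAPEX1. The groups did not overlap in CPM, and the log2 fold change was 0.65 (SE 0.183, adjusted p = 0.00495). The size of this increase depended on the scaling, and whether it was called depended on the fit too. With library sizes alone, which moved the median of all tested genes from 0.00 to -0.34, it was 0.31 with an adjusted p of 0.174, and with DESeq2 on all genes with at least 1 count it was 0.64 with an adjusted p of 0.105. Over all the alternatives its adjusted p ranged from 0.00281 to 0.174.

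ITGA3 (ENSG00000005884, chromosome 17 from 50055968 to 50090481, plus strand) encodes the alpha subunit of the main laminin receptor that pairs with ITGB1. It had 105, 104, 124 and 82 counts in siCTRL and 39, 38, 36 and 32 in siAPEX1, or 51.5 ± 5.03 against 28.6 ± 3.39 CPM (SD, n = 4). The highest siAPEX1 library, at 32.1 CPM, was under the lowest siCTRL library, at 45.4 CPM. The log2 fold change was -0.86 (SE 0.139, adjusted p = 3.98e-06), and the gene was called under each of the 19 alternatives.

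The 300 bases around the start site of ITGA6 are shown as those of the one gene that was higher, beside those of ITGB5, which was lower, and of ITGA5, the only one of 7 with a match to the AP-1 element. The sequences are RefSeq promoters (GRCh38.p14, 250 bases before to 50 after the start), and 7 members had one at the start of their canonical transcript. Capitals mark matches to the GC box GGGCGG (15786 of 35116 promoters, 45%), to the AP-1 element TGANTCA (7.71%) or to the TATA box TATAAA (11.5%), sought on both strands. Those for ITGA6 lie at chr2:172427336-172427635 on the plus strand, for ITGB5 at chr3:124887316-124887615 and for ITGA5 at chr12:54419217-54419516, both on the minus strand.
ITGA6: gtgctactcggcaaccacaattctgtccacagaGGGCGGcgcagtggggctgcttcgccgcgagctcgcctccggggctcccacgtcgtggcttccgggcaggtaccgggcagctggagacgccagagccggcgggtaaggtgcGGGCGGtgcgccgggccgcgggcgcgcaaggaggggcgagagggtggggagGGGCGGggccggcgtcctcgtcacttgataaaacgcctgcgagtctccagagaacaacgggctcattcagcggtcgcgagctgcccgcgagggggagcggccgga
ITGB5: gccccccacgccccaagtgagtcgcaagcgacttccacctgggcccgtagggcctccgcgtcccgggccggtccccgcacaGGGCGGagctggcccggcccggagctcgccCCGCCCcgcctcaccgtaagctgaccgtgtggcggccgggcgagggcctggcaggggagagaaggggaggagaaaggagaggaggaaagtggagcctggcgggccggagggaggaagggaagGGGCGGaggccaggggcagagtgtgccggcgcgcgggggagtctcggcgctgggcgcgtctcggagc
ITGA5: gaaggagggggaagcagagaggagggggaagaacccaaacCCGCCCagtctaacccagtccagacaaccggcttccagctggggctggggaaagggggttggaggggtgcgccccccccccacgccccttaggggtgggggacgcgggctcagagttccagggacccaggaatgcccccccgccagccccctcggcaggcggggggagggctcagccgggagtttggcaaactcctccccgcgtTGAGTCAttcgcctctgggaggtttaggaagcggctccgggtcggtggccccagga
ITGA6 and ITGB5 held 3 GC boxes each. ITGA2 held 4, ITGB1 3, ITGB8 2, ITGA5 1 and ITGAV 0. The TATA box matched none of these 7 windows. ITGA5 held its 1 AP-1 match close to the start site. A match is a description of the letters and was not tied to any change.

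Among the receptors for fibronectin and other RGD ligands, ITGB5 and ITGAV were lower together. ITGB5 (ENSG00000082781, chromosome 3 from 124761948 to 124901418, minus strand), a subunit of the vitronectin receptor, had 88, 92, 99 and 78 counts in siCTRL and 34, 36, 44 and 36 in siAPEX1. In CPM these were 44.5 ± 1.12 and 29.4 ± 1.64 (SD, n = 4), with the highest siAPEX1 library, at 31.7, under the lowest siCTRL library, at 43.2. The log2 fold change was -0.59 (SE 0.136, adjusted p = 6.26e-04) and kept an adjusted p of at most 0.0230 under each of the 19 alternatives.

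ITGAV (ENSG00000138448, chromosome 2 from 186590010 to 186680901, plus strand), the alpha subunit shared by the vitronectin receptors, had 86, 98, 103 and 88 counts in siCTRL and 46, 40, 43 and 49 in siAPEX1. Its CPM were 43.2, 47.5, 47.7 and 48.7 against 37.9, 32.5, 31 and 38.9, without overlap. The log2 fold change of -0.42 (SE 0.132, adjusted p = 0.0128) was the smallest of those called. It did not pass without siAPEX1 replicate 2 (-0.36, adjusted p = 0.0599), without siAPEX1 replicate 3 (-0.33, adjusted p = 0.0939), with DESeq2 in place of edgeR (-0.41, adjusted p = 0.0860) or with DESeq2 on all genes with at least 1 count (-0.44, adjusted p = 0.134).

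ITGA5 (ENSG00000161638, chromosome 12 from 54395261 to 54419266, minus strand), the alpha subunit of the classical fibronectin receptor, had only 13, 18, 22 and 15 counts in siCTRL and 7, 5, 9 and 6 in siAPEX1. The CPM, 8.44 ± 1.51 and 5.27 ± 1.07 (SD, n = 4), did not overlap, yet the log2 fold change of -0.67 (SE 0.305, 95% interval -1.27 to -0.07) had an adjusted p of 0.0906. At this depth a decrease of that size was not called, and whether more reads would change this was not tested. Library size scaling alone gave -1.01 with an adjusted p of 0.00613.

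ITGB3 (ENSG00000259207) and ITGB8 (ENSG00000105855), further beta partners of ITGAV, were too low to be tested. ITGB3, the subunit of the platelet and osteoclast receptors, had 1 count in siCTRL replicate 2, 1 in siAPEX1 replicate 4 and 0 in the other 6 libraries, under the floor of 3 counts. It also shares 33.2% of its exon bases with another gene on the same strand, ENSG00000259753. ITGB8, a subunit that binds latent TGF-beta, had 5, 4, 4 and 3 counts in siCTRL and 3, 7, 8 and 5 in siAPEX1, and its CPM overlapped between the groups (1.99 ± 0.367 and 4.47 ± 1.57, SD, n = 4). When all genes with at least 1 count were tested, ITGB8 had a log2 fold change of 1.06 (SE 0.482, adjusted p = 0.200).

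The common partner ITGB1 and the collagen receptor subunit ITGA2 were not called. ITGB1 (ENSG00000150093, chromosome 10 from 32887273 to 33005792, minus strand) was the most counted of the 10, with 380, 395, 399 and 374 counts in siCTRL and 305, 240, 330 and 283 in siAPEX1. Its CPM were 191, 191, 185 and 207 against 251, 195, 238 and 225, where siAPEX1 replicate 2 fell within the siCTRL range. The log2 fold change of 0.23 (SE 0.0944) had an adjusted p of 0.0557, close to the threshold. Without siAPEX1 replicate 2 it was 0.32 (adjusted p = 0.0104) and without siCTRL replicate 4 it was 0.27 (adjusted p = 0.0433). It was called higher under 5 of the 19 alternatives. With library sizes alone the sign turned, to -0.11 (adjusted p = 0.383). ITGA2 (ENSG00000164171, chromosome 5 from 52989340 to 53094779, plus strand) had 104, 121, 89 and 103 counts in siCTRL and 72, 73, 77 and 66 in siAPEX1. In CPM the groups overlapped, at 52.3 ± 7.83 and 56.6 ± 3.31 (SD, n = 4), and the log2 fold change was 0.12 (SE 0.125, 95% interval -0.13 to 0.36, adjusted p = 0.516). Its sign turned with library sizes alone too, to -0.22.

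Levels of different genes were compared per kilobase of canonical transcript. In siCTRL, ITGB1 stood far above the rest, at 51.8 ± 2.52 CPM per kilobase (SD, n = 4), followed by ITGA3 at 10.5 ± 1.03 and ITGB5 at 10.01 ± 0.251, which overlapped, and by ITGA2 at 6.67 ± 0.999 and ITGAV at 6.65 ± 0.344, which also overlapped. ITGB4 (3.93 ± 0.597), ITGA6 (2.66 ± 0.115), ITGA5 (1.99 ± 0.354), ITGB8 (0.222 ± 0.0409) and ITGB3 (0.0204 ± 0.0408) came next, each clear of its neighbour over the 4 libraries. In siAPEX1 the order below ITGB1 (60.8 ± 6.46) was less clear, since each neighbour from ITGA2 (7.22 ± 0.422) through ITGB5 (6.62 ± 0.368), ITGA3 (5.85 ± 0.694) and ITGAV (4.98 ± 0.557) to ITGA6 (4.18 ± 0.791) overlapped the next. ITGB4 (1.41 ± 0.270) was then under ITGA6 and overlapped ITGA5 (1.24 ± 0.252).

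The share of integrin counts on alpha subunits was 39.9% ± 0.778 in siCTRL and 35.8% ± 1.94 in siAPEX1 (SD, n = 4), a difference of -4.07 percentage points. By library it was 39.2%, 40.7%, 40.3% and 39.2% against 35.1%, 38.1%, 33.6% and 36.5%, without overlap. Per kilobase the share was 30.2% ± 0.941 against 25.4% ± 1.65. Neither share was corrected for base composition. The summed CPM of the alpha subunits were lower in siAPEX1 (149.9 ± 5.94 against 175 ± 4.27, without overlap), while those of the beta subunits overlapped (269 ± 22.1 against 263 ± 7.59). ITGB1 made up 44.2% ± 1.41 of all integrin counts in siCTRL and 54.1% ± 2.79 in siAPEX1. The sums of the beta subunits thus rest mainly on ITGB1, while ITGB4 and ITGB5 were lower.

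Ratios of the subunits of a known pair were taken within each library, so that they do not depend on how libraries are scaled to each other. They are on the log2 scale, per kilobase, with 0.5 added to each count. The ratios were not corrected for base composition, in which the transcripts of ITGA6 (42.5% GC) and ITGB4 (63.6% GC) differ. ITGA3 (60.9%) and ITGA5 (58.05%) also differ in it from ITGB1 (39.5%), while ITGAV (38.3%) is close to ITGB1. ITGA6 to ITGB4 changed most, on as few as 9 counts of ITGB4 in a library. The ratio was -0.75, -0.66, -0.47 and -0.29 in siCTRL and 1.36, 0.99, 1.69 and 2.08 in siAPEX1. In every siCTRL library ITGB4 was thus above ITGA6 and in every siAPEX1 library under it, with means of -0.54 ± 0.21 and 1.53 ± 0.46 (SD, n = 4) and a difference of 2.07. Against ITGB1, the ratio of ITGA6 was also higher in siAPEX1 (difference 0.41, no overlap). Ratios to ITGB1 were lower without overlap for ITGA3 (-1.07), ITGA5 (-0.85) and ITGAV (-0.64), and overlapped for ITGA2 (-0.10). ITGAV to ITGB5, a pair in which both genes were lower, overlapped between the groups (-0.59 ± 0.09 and -0.42 ± 0.23). ITGAV to ITGB8 was lower by a log2 difference of -1.48 without overlap, on as few as 3 counts of ITGB8 in a library.

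**Figure D3:**
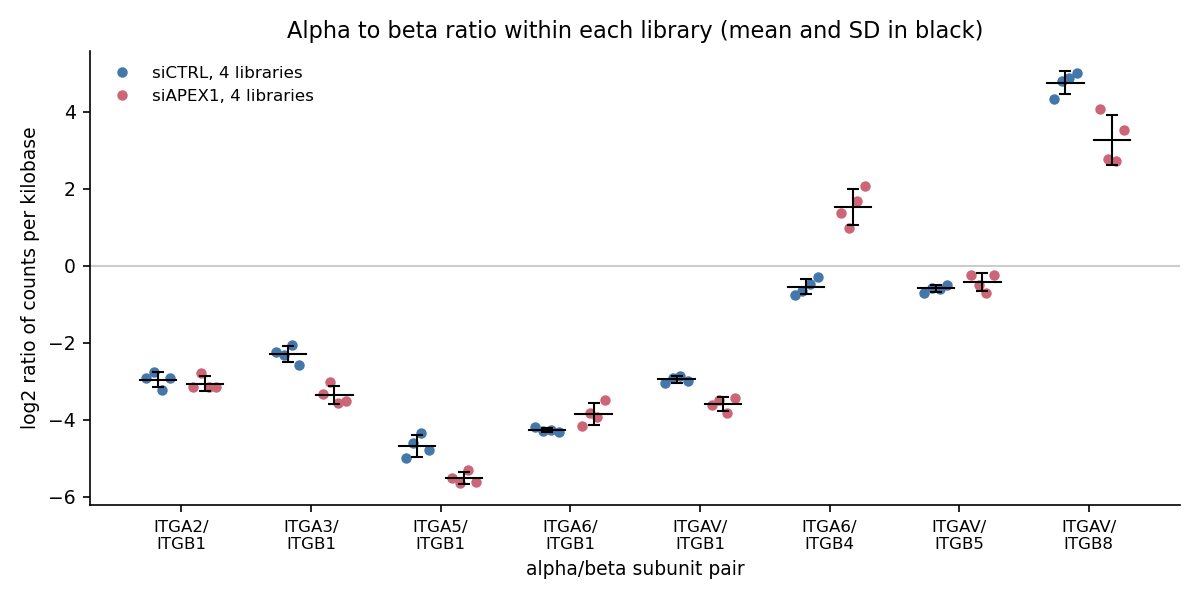
Log2 ratio of alpha to beta subunit counts per kilobase within each library, for 8 known pairs; points are libraries and black bars the mean and SD of 4. ITGA6 to ITGB4 lies below 0 in every siCTRL library and above 0 in every siAPEX1 library, and ITGAV to ITGB5 overlaps.

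Base composition moved with the changes. Over 4870 tested protein-coding genes, the log2 fold change and the GC content of the canonical transcript had a Spearman rho of -0.231 and a Pearson r of -0.221, across genes, which share the same 8 libraries and are not replicates. With these genes in 5 groups of 974 by GC content, the median log2 fold change fell from 0.13 in the lowest group (30.7% to 39.7% GC) to -0.24 in the highest (56.1% to 74.4% GC), where 26.5% were called lower. ITGB4 (63.6% GC), ITGA3 (60.9%) and ITGA5 (58.05%) are in the highest group and ITGB5 (54.6%) in the next, whereas ITGA6 (42.5%), ITGA2 (40.1%), ITGB1 (39.5%) and ITGAV (38.3%) are in the lowest 2. In the lowest group, which holds ITGAV, 8.93% of the genes were called lower. A fit on protein-coding genes that took out the GC trend of each library gave log2 fold changes of -1.25 for ITGB4 (adjusted p = 8.09e-06), -0.62 for ITGA3 (3.12e-04), -0.47 for ITGB5 (0.00688), -0.46 for ITGAV (0.00507) and 0.65 for ITGA6 (0.00478). On the same genes without the correction these were -1.45, -0.82, -0.56, -0.38 and 0.69, and ITGB1 was called too (0.27, adjusted p = 0.0114, against 0.19 and 0.0773 with the correction). The decreases of ITGB4, ITGA3 and ITGB5 were thus smaller with the correction and that of ITGAV larger, and the 5 genes called by the fit on all genes passed in both.

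**Figure D4:**
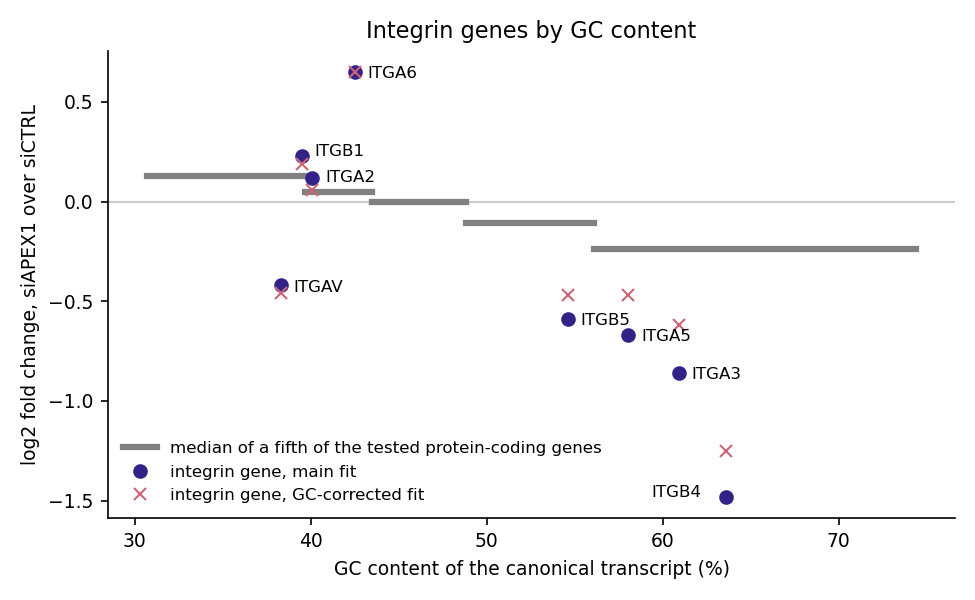
Log2 fold change of the 8 tested integrin genes (y axis, siAPEX1 over siCTRL) by GC content of the canonical transcript (x axis, percent); dots are the fit on all 5368 genes, crosses the GC-corrected fit on protein-coding genes, and grey bars the medians of 5 groups of 974 protein-coding genes. The grey bars step from 0.13 to -0.24, and ITGB4, at 63.6% GC, lies at -1.48 in the first and -1.25 in the second.

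Seed matches were sought because the study centred on miRNAs. The mature sequences of hsa-miR-33a-5p, hsa-miR-130b-3p and hsa-miR-183-5p from RefSeq (GRCh38.p14) are shown with the seed, bases 2 to 8, in capitals. The 3 seeds differ from each other, and whether other miRNAs share them was not examined. The 3′UTR stretches that hold its complement in members with a called or nearly called change follow, from the canonical GENCODE 44 transcripts, with the 7 matching bases in capitals.
hsa-miR-33a-5p: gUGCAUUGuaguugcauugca
hsa-miR-130b-3p: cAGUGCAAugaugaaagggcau
hsa-miR-183-5p: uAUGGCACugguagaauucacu
ITGB5, miR-33a-5p match: tgcaggccCAATGCAaaaaaaca
ITGA6, miR-130b-3p match: ctgcccagTTGCACTcaggtgac
ITGAV, miR-183-5p match: ttgcttttGTGCCATctattcct
ITGB1, first miR-183-5p match: aaacctgtGTGCCATtttaagag
ITGB1, second miR-183-5p match: ttgagttaGTGCCATaacagacc
Of 19535 3′UTRs, 8.41% held a match to the seed of miR-33a-5p, 13.9% to miR-130b-3p and 10.6% to miR-183-5p. Among the 10 members, miR-33a-5p matched ITGB5 and ITGB8, miR-130b-3p matched ITGA6 and ITGB8, and miR-183-5p matched ITGAV, ITGB1 and ITGB8. The miRNA genes MIR183 and MIR130B were lower in siAPEX1, with log2 fold changes of -1.18 (SE 0.110, adjusted p = 1.51e-11) and -1.06 (SE 0.295, adjusted p = 0.00484). MIR130B did not pass without siAPEX1 replicate 3 (-0.73, adjusted p = 0.0652) or with DESeq2 on all genes with at least 1 count (-1.06, adjusted p = 0.0821). The gene of miR-33a-5p is not reported here. Since longer transcripts were read too, counts on a miRNA gene need not come from the mature miRNA. Of the genes with a miR-183-5p match, ITGAV was lower (-0.42), ITGB1 was not called (0.23) and ITGB8 was too low for the test. ITGA2, ITGA3, ITGA5, ITGB3 and ITGB4 held none of the 3 matches. Their 3′UTRs differ in length, from 263 bases in ITGB4, where a match has few places to lie, to 4180 in ITGA2. Binding at these matches was not measured.

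Beyond the 10, 16 other integrin subunit genes are in the annotation, and 1 of them, ITGAE, an alpha subunit known from T cells in epithelium, could be tested (-0.37, SE 0.324, adjusted p = 0.425). ITGB2, the beta subunit of leukocytes, had 5, 4, 1 and 0 counts in siCTRL and 0, 2, 0 and 0 in siAPEX1. ITGA10, a collagen receptor subunit, had 5, 2, 4 and 2 against 0, 1, 1 and 0. The remaining 13 had at most 3 counts in any library.

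Of 45 genes for proteins that activate integrins or tie them to actin, 27 were tested, of which 10 were lower (against 15.8% of all genes), 4 higher (against 15.9%) and 13 did not pass, with a median log2 fold change of -0.29. DESeq2 called 6 of these genes in place of 14. The lower ones included TGFB1I1, the paxillin relative Hic-5 (-2.22, adjusted p = 1.20e-04), GIT1, a scaffold of focal adhesions (-1.12, 0.00641), FLNA, an actin crosslinker that binds beta subunit tails (-1.05, 8.34e-10), and ZYX, a protein of mature adhesions (-1.04, 6.41e-05). FLNA fell from 140.3 ± 21.9 to 67.9 ± 3.37 CPM (SD, n = 4). The small GTPase RAP1B was higher (0.93, adjusted p = 0.0123), as were the scaffold NEDD9 (0.45, 0.0452) and LPP (0.40, 0.00996). The direct activator TLN1 (0.23, adjusted p = 0.287), VCL (0.18, 0.498) and ILK (-0.29, 0.461) did not pass. TGFB1I1 was at 7.62 ± 1.22 CPM in siCTRL and 1.60 ± 1.64 in siAPEX1, so its fold change rests on few counts.

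Next to ITGA6 and ITGB4 in the hemidesmosome, CD151, the tetraspanin that binds laminin receptors, was lower (42.4 ± 3.39 against 26.3 ± 1.57 CPM, log2 fold change -0.68, adjusted p = 2.10e-04). PLEC (0.21, adjusted p = 0.213) and DST (0.16, 0.278), the plakins that join ITGB4 to keratin, did not pass, and COL17A1 was too low to be tested. With the GC correction PLEC was called higher, and without siAPEX1 replicate 2 DST was. Of 15 other tetraspanins 8 were tested, and CD9 (-2.17, adjusted p = 5.66e-09), TSPAN3 (-1.47, 1.69e-09) and CD63 (-0.54, 1.75e-05) were lower, with none higher and a list median of -0.32. The 3 lower among 8 tested compare with 15.8% of all genes called lower and 31.7% called in either direction. Library sizes alone called 5. CD81, like CD9 a partner of ITGB1 in the membrane, did not pass (0.11, 0.556).

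The ligands split. Of 36 genes 16 were tested, with 6 lower (against 15.8% of all genes), 5 higher (against 15.9%) and a median of -0.06. DESeq2 on all genes with at least 1 count called 7 in place of 11. FN1, which encodes fibronectin, was lower (89.7 ± 6.79 against 24.6 ± 2.09 CPM, log2 fold change -1.87, adjusted p = 7.63e-15). LAMB3, the beta chain of a laminin of the epithelial basement membrane, was lower too (-1.48, adjusted p = 0.00168), while the alpha chain LAMA3 was not called (11.2 ± 0.502 and 11.3 ± 2.49 CPM, adjusted p = 0.995). LAMC1, a laminin gamma chain, was higher (17.7 ± 2.77 against 49.5 ± 4.10 CPM, 1.47, adjusted p = 1.57e-10). CCN2 (1.11, 5.23e-07), COL5A1 (0.97, 2.45e-04) and SPP1, osteopontin (0.57, 0.00605), were also higher. TGFB1, whose latent form is bound by ITGAV pairs, was lower (-0.97, 2.32e-05).

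**Figure D5:**
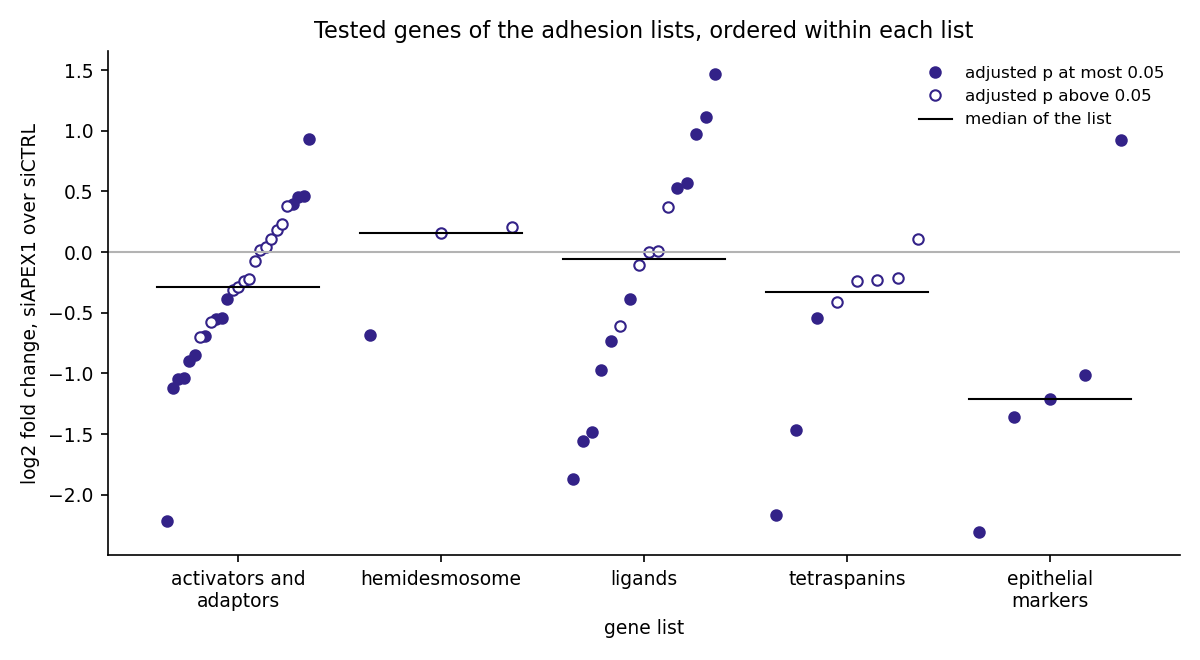
Log2 fold change, siAPEX1 over siCTRL, of each tested gene in 5 gene lists, ordered within a list; filled points have an adjusted p of at most 0.05 and lines are list medians. The adaptors, tetraspanins and epithelial markers have medians of -0.29, -0.32 and -1.21, and the ligands spread from -1.87 to 1.47.

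The epithelial markers split as well. Of 6 genes 5 were tested, with 4 lower (against 15.8% of all genes) and 1 higher (against 15.9%). KRT19 (-2.31, adjusted p = 1.82e-16), KRT18 (-1.36, 3.75e-13), KRT7 (-1.21, 6.56e-12) and KRT8 (-1.01, 1.33e-07), keratins of simple epithelium, were lower, and CDH1, the junction protein E-cadherin, was higher (0.92, 2.45e-04). EPCAM was not tested, with 9, 8, 8 and 9 counts in siCTRL and 1, 0, 4 and 5 in siAPEX1. The 6 markers summed to between 567 and 693 CPM in siCTRL and between 221 and 287 in siAPEX1. Their part in the lower values of ITGB4 and ITGA3 was not tested. Of 6 leukocyte markers CD14 alone passed 5 counts in a library, with 6, 9, 6 and 5 counts in siCTRL and 2, 0, 0 and 1 in siAPEX1. Endothelial, platelet and fibroblast markers, 3 genes each, summed to at most 1.51 CPM in any library.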

How the data were processed

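Total RNA of 8 A549 samples, 4 siCTRL and 4 siAPEX1, was read as single ends. The authors trimmed the reads, aligned them to GRCh38 with STAR 2.5.3a and deposited the counts per Ensembl gene, whole numbers without normalization. The annotation release and the strand setting of the counting are not given in the sources used here, so reads of a gene and of an overlapping antisense gene cannot be told apart. Such overlaps cover at most 2.75% of the exon bases of a member (ITGB1 with ITGB1-DT). Of 58302 identifiers, 57532 matched GENCODE 44.

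Groups and replicate numbers were taken from the sample labels. Counts were tested with edgeR 4.0.16 in R 4.3.3 (TMM factors, quasi-likelihood test, Benjamini-Hochberg adjustment over all genes tested). Genes with low counts were left out by filterByExpr (minimum count 10, minimum total 15), and 5368 were tested. A gene was called at an adjusted p of at most 0.05. The common biological coefficient of variation was 0.0832. The floor was set at 3 counts and covers counting error only. GC content was corrected by offsets per library in 10 bins of genes. The scripts were tested on simulated data.

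The members and lists were chosen with earlier results of these data known. The genes named are the 10 members, APEX1, all markers, other integrins with more than 3 counts in a library, and from each adhesion list up to 4 called genes per direction by size of change. Some genes that this rule names are not reported here. TLN1, VCL, ILK, PLEC, DST, COL17A1, CD81, LAMA3, MIR183 and MIR130B were added after their values were seen. Alternatives were other scalings and filters, DESeq2 1.42.0, a threshold of 0.75, a replicate block and leaving out single libraries. Added after seeing the data were protein-coding genes only, without and with the GC correction, and DESeq2 on all genes with at least 1 count.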

Additional observations from a re-analysis of the deposited data

Results flagged for a closer look

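Among 36 groups of 4 libraries, 1 held a library far from the other 3. It was the log2 ratio of ITGA2 to ITGB1 per kilobase in siAPEX1, where replicate 2 stood at -2.78 and the others at -3.15, -3.16 and -3.16. The gap made up 0.955 of the whole range, above the 95% limit of Dixon's test for 4 values. Chance alone flags about 1 in 20 groups. The same library had the lowest CPM of ITGB1 in its group, 195.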

How the results depend on the processing

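ITGA3 and ITGB5 were called lower under all 19 alternatives, and ITGB4 under the 18 in which it was tested. The number of members called lower, 4, ranged from 3 to 5. Library sizes alone reversed ITGA2 (-0.22) and ITGB1 (-0.11), gave 0 members called higher and 3 past a log2 fold change of 1, moved the medians to -0.76 (alpha) and -0.94 (beta), called 340 genes higher (14.9% of calls, against 50.3%) and called 5 tetraspanins. RLE factors, TMM factors from protein-coding genes and protein-coding genes alone gave 2 members higher, ITGB1 being the addition, and leaving out 1 library gave 1 to 2. DESeq2 called 1123 genes and 6 adaptors in place of 1703 and 14. DESeq2 on all genes with at least 1 count called 902 genes, 454 of them higher, 0 members higher, 7 adaptors and 7 ligands, with a beta median of 0.22. With edgeR on the same genes the beta median was 0.14, since ITGB3 and ITGB8 entered, 38.4% of calls were higher, and 1 other integrin, ITGAX, was called. At least 10 counts in every library left out ITGB4 and ITGA5, which gave 0 members past a log2 fold change of 1, medians of -0.24 (alpha) and -0.27 (beta) and 9 adaptors. A threshold of 0.75 gave 2 members. The GC correction gave a beta median of -0.47 and 2 hemidesmosome genes, and leaving out 1 library gave 1 to 2 of the latter. Elsewhere the cause was not tested. The libraries share replicate numbers in the labels, but same-numbered libraries did not deviate together (correlations from -0.0373 to -0.00348) and none matched best with its own number. The replicate block called 1595 genes and changed no call of a member. Counts were low for ITGA5, ITGB3 and ITGB8, at most 22, 1 and 8 in a library.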
